A study of Rattus norvegicus with 46 samples.

Results

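Postn, Cthrc1, Lrrc15, Tnc and Fap are genes that fibroblasts switch on during wound repair and scarring, and their levels were followed through the healing of a cut rotator cuff tendon and of the bursa above it in rats. The members were the 5 rows with these symbols in the authors' deposited gene tables, 5 of 23747 symbols. They had been chosen by their changes after injury, which were already known, so the comparison of injured with uninjured tissue is given for them as a description and without a test. The study asked what the subacromial bursa, a thin lubricating pouch that lies over the supraspinatus tendon, contributes to the response of that tendon to injury. The supraspinatus tendon was cut (tenotomy), and the bursa was removed (bursectomy) or left intact. RNA enriched for poly(A) transcripts was sequenced in 46 libraries, 29 of tendon and 17 of bursa. Tendons of operated rats came from shoulders with the bursa removed or with the bursa intact, collected at day 3 or day 14, with 6 libraries in each of the 4 groups. Bursae that had been left over a cut tendon were collected at day 3 or day 14, with 6 libraries each. Control bursae and control tendons came from rats without an operation, with 5 libraries each. The labels used here name no strain, sex, age or genotype.

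Periostin, the product of Postn, is a secreted matrix protein that binds integrins and collagen and helps collagen fibres to be cross-linked. Cthrc1 codes for a secreted protein of injured arteries and scars that is known to act on Wnt receptors, and Lrrc15 for a membrane protein of activated fibroblasts that TGF-beta induces. Tenascin-C, the product of Tnc, is a large matrix glycoprotein that is low in most adult tissues, appears in wounds, and is present in tendon under load. Fap codes for fibroblast activation protein, a protease of the cell surface that cuts after proline and marks fibroblasts of wounds and tumours.

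Because the members moved together in several comparisons, the 150 bases before the start of transcription are shown for the 4 members that the RefSeq promoter table holds (build GRCr8, each written 5′ to 3′ on the strand of its gene). They lie at chr2:140677911-140678060 on the plus strand for Postn, at chr11:83974558-83974707 on the plus strand for Lrrc15, at chr5:82476132-82476281 on the minus strand for Tnc and at chr3:67616092-67616241 on the minus strand for Fap. Capitals mark matches to the motifs searched.
Postn promoter: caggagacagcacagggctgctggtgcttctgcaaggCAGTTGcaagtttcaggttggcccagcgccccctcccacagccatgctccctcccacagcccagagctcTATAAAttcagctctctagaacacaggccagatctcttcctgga
Lrrc15 promoter: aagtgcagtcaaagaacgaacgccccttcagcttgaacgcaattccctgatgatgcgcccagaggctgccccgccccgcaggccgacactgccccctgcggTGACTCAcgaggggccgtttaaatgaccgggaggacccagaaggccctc
Tnc promoter: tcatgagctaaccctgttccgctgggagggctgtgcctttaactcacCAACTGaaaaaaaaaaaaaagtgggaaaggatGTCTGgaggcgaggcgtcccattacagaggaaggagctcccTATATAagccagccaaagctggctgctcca
Fap promoter: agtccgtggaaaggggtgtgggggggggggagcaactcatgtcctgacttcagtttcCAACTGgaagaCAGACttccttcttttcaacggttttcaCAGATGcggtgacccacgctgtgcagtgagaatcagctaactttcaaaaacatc
A TATA box (TATANA, on the strand of the gene) stood 44 bases before the start of Postn and 30 bases before that of Tnc, and 11% of the 33469 promoters of this length held these letters. An AP-1 site (TGANTCA, either strand) stood 49 bases before the start of Lrrc15 and was held by 3.69% of all promoters. E-box letters (CANNTG, either strand) occurred in Postn, in Tnc and at 2 places in Fap, against 46.6% of all promoters. The short SMAD element CAGAC (either strand) occurred in Tnc, read on the opposite strand as GTCTG, and in Fap, and in 27.8% of all promoters. Letters of a TEAD site (GGAATG, 7.4% of promoters), a RUNX site (TGTGGT, 8.38%) and a CArG box (0.878%), each searched on both strands, were in none of the 4. No motif was held by all 4, and the E-box, held by 3 of them, is also the most frequent of these motifs over all promoters.

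Libraries held 12.4 to 69.9 M estimated counts (M, mega), with a median of 17.3 M and the second highest at 22.6 M. The highest was bursa replicate 6 of day 14. Levels are counts per M after TMM scaling (CPM), and they are not compared between genes because transcript lengths were not used. Markers of each tissue were checked against the labels. The summed level of 7 matched tendon cell genes was 1741 to 9405 CPM over the tendon libraries, and 61.8 to 298 CPM in 4 of the 5 control bursae. Control bursa 4 stood apart with 2557 CPM, and bursa replicate 2 of day 14 had 1385 CPM against 177 to 1077 CPM in the other bursae of that day. Adipocyte genes, which mark bursal fat, summed to 724 to 6951 CPM in the bursae and 21.4 to 271 CPM in the tendons. The 5 synovial lining genes went the other way, with 366 to 1155 CPM in the bursae and 1644 to 4865 CPM in the tendons. That list thus did not mark the bursa libraries. Skeletal muscle genes summed to 29988 to 48061 CPM in the control tendons. In the injured tendons they summed to 1718 to 19566 CPM, so muscle RNA differed with injury. In the bursae these genes summed to 455 to 17286 CPM in controls, 4.01 to 6918 CPM at day 3 and 1320 to 9228 CPM at day 14. The muscle level was also used as a covariate, in the fits of tendon libraries only. Since control and injured tendons did not overlap in it, muscle content and injury cannot be told apart in the differences from control. In tissue samples such as these, fewer cells of a type and less RNA per cell cannot be told apart. No label says which libraries came from the same rat, so each library was taken as a replicate and p-values measure the spread between libraries.

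**Figure D1:**
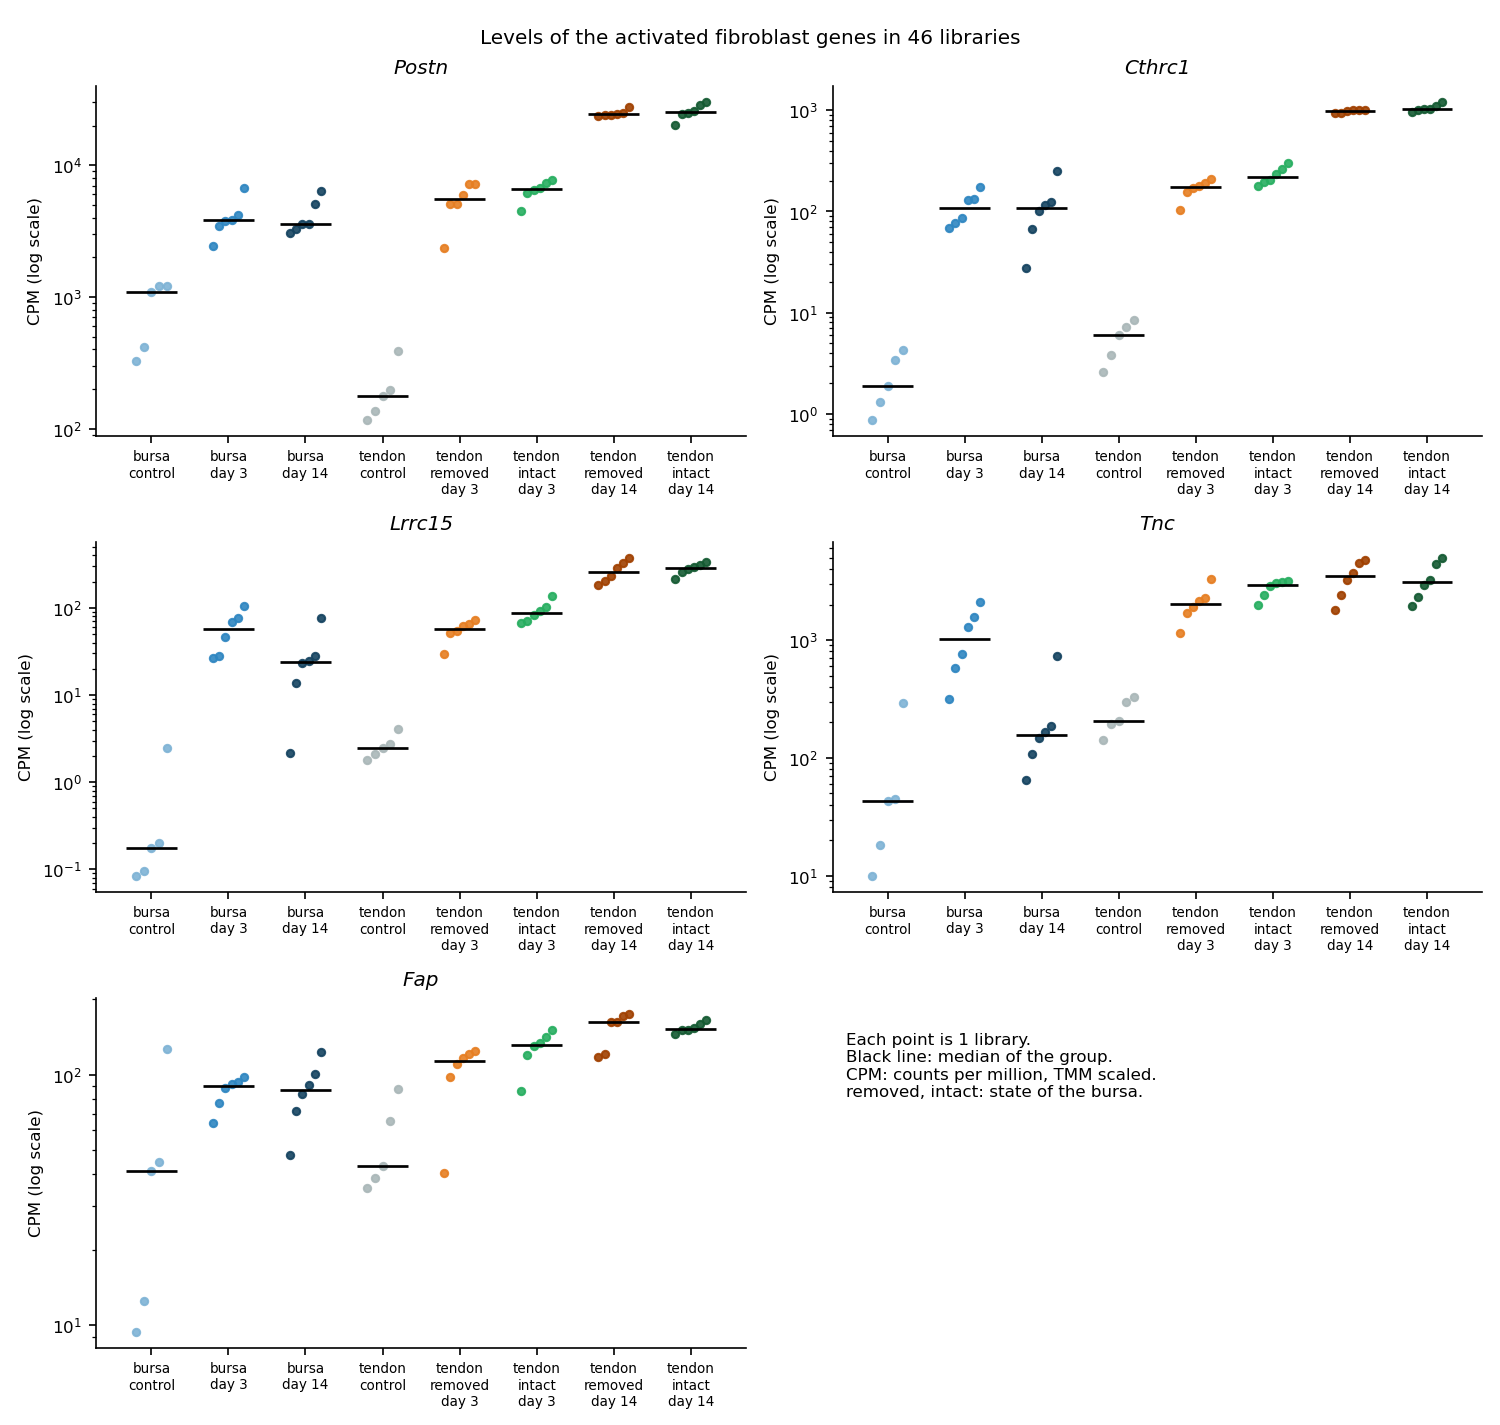
Level of each gene in CPM on a log axis in the 46 libraries, by group; each point is 1 library and each black line the median of its group. All 5 genes are lowest in a control group, and Postn, Cthrc1 and Lrrc15 are highest in the tendons of day 14, with no overlap with any tendon of day 3.

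Postn, the periostin gene, had 324, 414, 1217, 1090 and 1214 CPM in the 5 control bursae. Bursae over a cut tendon had a lowest, median and highest level of 2439, 3815 and 6723 CPM at day 3 and of 3078, 3568 and 6324 CPM at day 14. Each injured bursa lay above each control bursa, and the injured bursae of the 2 days covered the same range. In control tendons it had 136, 117, 387, 195 and 177 CPM. At day 3 it had 2353, 5508 and 7213 CPM (lowest, median, highest) in tendons with the bursa removed, against 4519, 6559 and 7696 CPM with the bursa intact. At day 14 it had 23512, 24423 and 27586 CPM with the bursa removed, against 20094, 25377 and 30238 CPM with the bursa intact. The tendon levels thus formed 3 separate steps, control, day 3 and day 14, and within a day the removed and intact tendons overlapped.

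Cthrc1, whose product is secreted by fibroblasts of healing tissue, was nearly silent without injury. It had 1.32, 0.874, 1.90, 4.25 and 3.42 CPM in the control bursae, and 7.25, 3.81, 6.02, 2.62 and 8.52 CPM in the control tendons. In bursae it reached a lowest, median and highest level of 68.7, 108 and 176 CPM at day 3 and of 27.4, 108 and 250 CPM at day 14. No injured bursa overlapped a control bursa, and the spread between bursae was wider at day 14, where replicate 6 was lowest and replicate 2 highest. Tendons with the bursa removed had 103, 174 and 209 CPM at day 3, against 179, 220 and 298 CPM with the bursa intact. At day 14 the tendons with the bursa removed lay between 936 and 1009 CPM with a median of 991 CPM, against 971 to 1209 CPM with a median of 1030 CPM in the intact group. The 3 steps of control, day 3 and day 14 did not overlap in tendon.

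Lrrc15, the membrane protein of activated fibroblasts, had 0.176, 0.0971, 0.20, 2.48 and 0.0844 CPM in the control bursae, which rest on 1 to 46 counts per library. Control bursa 4, which also had the high tendon marker sum, was the library with 2.48 CPM. Injured bursae had 26.6, 57.4 and 104 CPM (lowest, median, highest) at day 3 and 2.14, 24.1 and 77.0 CPM at day 14. The lowest bursa of day 14, replicate 6, lay within the range of the control bursae, and the others lay above it. Control tendons had 2.14, 1.78, 2.71, 2.44 and 4.09 CPM. Tendons with the bursa removed had 29.3, 58.0 and 72.1 CPM at day 3, against 67.9, 87.0 and 136 CPM with the bursa intact, and the 2 groups shared only the narrow stretch between 67.9 and 72.1 CPM. At day 14 the removed group had 184, 261 and 374 CPM, against 216, 288 and 334 CPM in the intact group, overlapping almost fully.

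Tnc, the gene of the wound and tendon matrix protein tenascin-C, had 18.2, 10.0006, 43.0, 295 and 45.1 CPM in the control bursae, control bursa 4 again being the highest. Injured bursae had 316, 1027 and 2097 CPM (lowest, median, highest) at day 3 and 64.6, 156 and 730 CPM at day 14. The bursae of day 3 lay above every control bursa, and those of day 14 overlapped both. Control tendons had 296, 208, 142, 194 and 332 CPM. At day 3 the removed group had 1141, 2013 and 3306 CPM, against 1968, 2949 and 3187 CPM in the intact group. At day 14 the removed group had 1793, 3473 and 4748 CPM, against 1934, 3088 and 4977 CPM in the intact group. All injured tendons lay above the control tendons, and the ranges of the 4 injured tendon groups overlapped one another.

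Fap, the gene of the surface protease, had 12.5, 9.42, 41.1, 126 and 44.9 CPM in the control bursae, and 65.1, 87.5, 38.6, 35.4 and 43.2 CPM in the control tendons. Injured bursae had 64.3, 90.3 and 98.1 CPM (lowest, median, highest) at day 3 and 47.9, 87.1 and 123 CPM at day 14. Control bursa 4 lay above all 12 injured bursae, and the other 4 control bursae lay below all of them. Tendons with the bursa removed had 40.5, 113 and 125 CPM at day 3, against 86.2, 132 and 151 CPM with the bursa intact. At day 14 the removed group had 118, 162 and 175 CPM, against 146, 152 and 166 CPM in the intact group. Both day 14 groups lay above the control tendons, while at day 3 replicate 1 of the removed group and the lowest intact library fell into the control range.

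Set in order of their medians, the 8 groups came out alike for Postn, Cthrc1 and Lrrc15 above the controls, in ascending order bursa day 14, bursa day 3, removed tendon day 3, intact tendon day 3, removed tendon day 14 and intact tendon day 14. In this order each group overlapped the next except at 1 place for all 3 genes, between the intact tendons of day 3 and the removed tendons of day 14. Postn and Cthrc1 had a further gap between the higher control group and the injured bursae. For Postn the lower control was the tendon, and for Cthrc1 and Lrrc15 the bursa. For Tnc the bursae of day 14 ranked below the control tendons, and for Tnc and Fap every group overlapped its neighbour.

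Relative to control, the differences below describe values that were known when the genes were chosen. Given as log2 fold changes ± SE from edgeR, Lrrc15 and Cthrc1 lay furthest above control in the bursa of day 3 (6.52 ± 0.98 and 5.55 ± 0.58), followed by Tnc (3.77 ± 0.91), Postn (2.29 ± 0.37) and Fap (0.90 ± 0.48). At day 14 the bursa differed from control by 5.54 ± 0.58 for Cthrc1, 5.42 ± 0.95 for Lrrc15, 2.28 ± 0.37 for Postn, 1.49 ± 0.82 for Tnc and 0.87 ± 0.48 for Fap. Of the 5 genes 4 lay above the control bursae without overlap at day 3, where 13.4% of 16700 features did, and 2 did so at day 14, where 6.44% did and 3.93% lay below without overlap. Without control bursa 4 the differences of Lrrc15 were 8.70 at day 3 and 7.60 at day 14, those of Tnc 5.27 and 2.99, and those of Fap 1.69 and 1.66, so this library alone sets much of their size. Without bursa replicate 2 of day 14, the difference of Tnc at day 14 was 0.70.

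In tendon the order differed, with Postn among the genes furthest from control. In removed tendons the log2 differences from control were 4.74 ± 0.29 for Postn, 4.89 ± 0.23 for Cthrc1, 4.43 ± 0.27 for Lrrc15, 3.13 ± 0.30 for Tnc and 0.90 ± 0.23 for Fap at day 3. In intact tendons of day 3 they were 4.98 ± 0.30, 5.34 ± 0.23, 5.14 ± 0.28, 3.54 ± 0.31 and 1.22 ± 0.23 for the same genes in the same order. In the removed group at day 14 they were 6.92 ± 0.33, 7.44 ± 0.25, 6.69 ± 0.30, 3.85 ± 0.31 and 1.47 ± 0.23, and in the intact group at day 14 they were 6.98 ± 0.33, 7.56 ± 0.26, 6.77 ± 0.30, 3.81 ± 0.31 and 1.5 ± 0.23. These comparisons share the 5 control tendons. All but Fap lay above the controls without overlap at day 3 (background 18.4% of 16768 features in the removed and 22.8% in the intact group), and all 5 did at day 14 (22.9% in the removed, where 21.7% lay below without overlap, and 23.7% in the intact group). With the muscle level as a covariate the differences were smaller. Examples are 4.38 for Postn, 4.31 for Lrrc15, 2.14 for Tnc and 0.69 for Fap in intact tendons of day 3. In intact tendons of day 14 they were 6.44, 5.99, 2.47 and 1.03 for these 4. Control and injured tendons did not overlap in muscle level, so the fit cannot divide these differences between muscle content and injury.

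Between day 3 and day 14 Postn, Cthrc1 and Lrrc15 rose several-fold in the cut tendon whether the bursa had been removed or not. The distances of both days from control were known when the genes were chosen, so the p-values only measure the spread between libraries. In tendons with the bursa removed the log2 fold change of day 14 over day 3 was 2.18 ± 0.24 for Postn (adjusted p = 3.7e-08), 2.54 ± 0.18 for Cthrc1 (adjusted p = 3.2e-11) and 2.26 ± 0.21 for Lrrc15 (adjusted p = 2.6e-09, edgeR quasi-likelihood). In tendons with the bursa intact it was 2.00 ± 0.24 for Postn (adjusted p = 1.6e-07), 2.21 ± 0.18 for Cthrc1 (adjusted p = 2.6e-10) and 1.63 ± 0.21 for Lrrc15 (adjusted p = 3.9e-07). Each of these 3 genes was higher in all 6 libraries of day 14 than in any of day 3, in both groups, where 13.3% of features in removed and 12.5% in intact tendons lay so.

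Marker genes of several cell types moved over the same time. The summed level of the 7 tendon cell genes was 6884 to 7767 CPM at day 14 against 1896 to 2502 CPM at day 3 in removed tendons, and 6557 to 9183 CPM at day 14 against 1741 to 3700 CPM at day 3 in intact tendons. That of 6 macrophage genes was 512 to 583 CPM at day 14 against 648 to 1015 CPM at day 3 in removed, and 540 to 595 CPM at day 14 against 884 to 999 CPM at day 3 in intact tendons. That of 2 cell division genes was 40.6 to 76.1 CPM at day 14 against 131 to 219 CPM at day 3 in removed, and 43.0 to 54.7 CPM at day 14 against 176 to 239 CPM at day 3 in intact tendons. The tendon cell genes were thus higher and the other 2 lists lower at day 14 without overlap in both groups. Osteoblast, chondrocyte and pericyte genes were also higher and neutrophil genes lower without overlap in both. The 4 genes for fibroblasts of any state overlapped between the days. They summed to 6307 to 7714 CPM at day 14 against 3429 to 7181 CPM at day 3 in removed tendons. In intact tendons they summed to 6516 to 7137 CPM against 5752 to 7778 CPM. The part of these lists in the changes of the 5 genes was not tested.

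Tnc and Fap moved less over the same time. In removed tendons Tnc rose by 0.71 ± 0.26 (adjusted p = 0.028) and Fap by 0.58 ± 0.21 (adjusted p = 0.028), so 5 of 5 genes passed the test there, against 44.4% of 16768 features. In intact tendons Tnc differed by 0.27 ± 0.26 (adjusted p = 0.43) and Fap by 0.29 ± 0.21 (adjusted p = 0.29), so 3 of 5 passed, against 42.7% of features. The difference between removed and intact tendons in this change did not pass the test for any of the 5, the furthest being Lrrc15 at 0.64 ± 0.29 (unadjusted p = 0.034, adjusted p = 1.0), and 0 of 16768 features were called there by edgeR (252 at an unadjusted p under 0.05, and 0 by DESeq2). In the authors' deposited tables Fap did pass in intact tendons, at 0.35 ± 0.12 (adjusted p = 0.0115). The 2 smaller calls in removed tendons did not hold throughout. Scaled to total counts, Tnc gave 0.53 (adjusted p = 0.10) and Fap 0.38 (adjusted p = 0.20), while the median of all features then lay at -0.20 and their distance from it was 0.73 and 0.58. Without removed replicate 1 or 2 of day 14, or replicate 1 or 5 of day 3, Tnc gave 0.61 to 0.66 (adjusted p 0.056 to 0.067), and without removed replicate 6 of day 14 Fap gave 0.54 (adjusted p = 0.055).

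In the bursa 0 of the 5 genes passed the test for day 14 against day 3, where 21.4% of 16700 features did. The libraries of the 2 days overlapped for each gene, while 6.9% of features lay higher and 7.34% lower at day 14 without overlap. Postn differed by -0.01 ± 0.33 (adjusted p = 0.99, 95% interval -0.71 to 0.69), Cthrc1 by -0.01 ± 0.43 (adjusted p = 0.99, interval -0.92 to 0.89) and Fap by -0.03 ± 0.45 (adjusted p = 0.97, interval -0.99 to 0.93). Lrrc15 had a log2 fold change of -1.09 ± 0.67, which did not pass (adjusted p = 0.28, interval -2.52 to 0.33). Tnc had one of -2.28 ± 0.79 (unadjusted p = 0.011, adjusted p = 0.0506, interval -3.96 to -0.60), just outside the threshold of 0.05. The authors' deposited table gave Tnc -2.27 ± 0.62 with an adjusted p of 0.0013, and DESeq2 on the summed counts gave an adjusted p of 0.0074. Without bursa replicate 2 of day 14, the library with the high tendon marker sum and 730 CPM of Tnc, the edgeR value was -3.07 (adjusted p = 0.014), and without replicate 5 of day 3 it was -2.47 (adjusted p = 0.040).

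**Figure D2:**
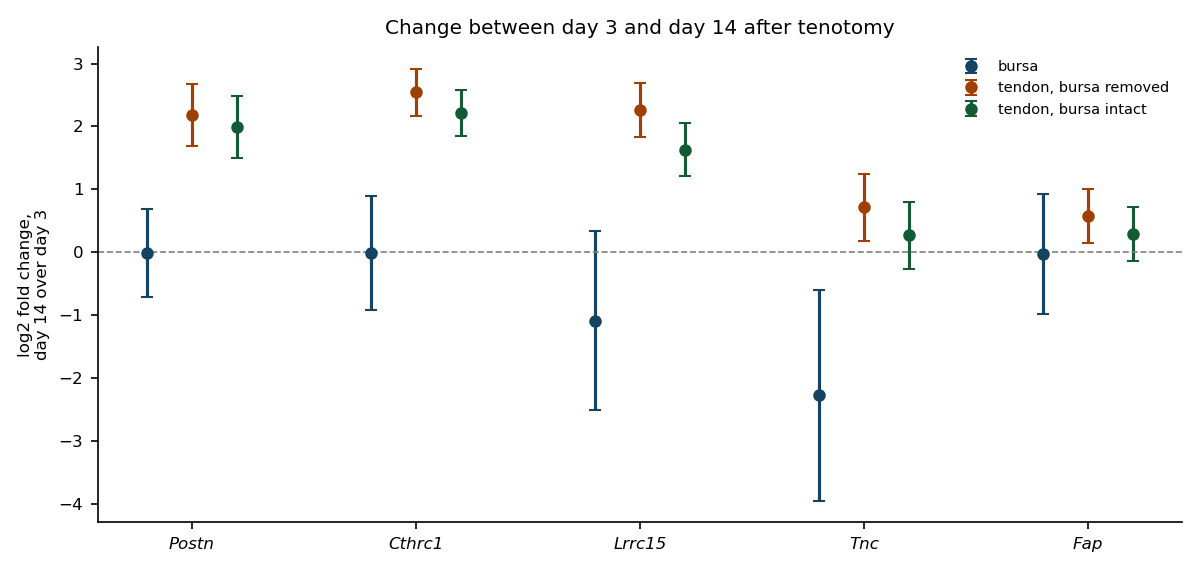
Log2 fold change of day 14 over day 3 for each gene in the bursa, in tendon with the bursa removed and in tendon with the bursa intact; points are edgeR estimates and bars their 95% intervals. Postn, Cthrc1 and Lrrc15 lie between 1.63 and 2.54 in both tendon groups and at or below 0 in the bursa, and Tnc is at -2.28 in the bursa.

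The change from day 3 to day 14 differed between bursa and intact tendon for 4 of the 5 genes (bursa minus intact tendon, 16.6% of 17627 features called, 7.87% with the higher and 8.72% with the lower value in bursa). The difference was -1.96 ± 0.40 for Postn (adjusted p = 0.00065), -2.18 ± 0.44 for Cthrc1 (adjusted p = 0.00056), -2.67 ± 0.63 for Lrrc15 (adjusted p = 0.0030) and -2.50 ± 0.75 for Tnc (adjusted p = 0.018), by edgeR over all 46 libraries. For Fap it was -0.27 ± 0.47 (adjusted p = 0.76). For Postn, Cthrc1 and Lrrc15 this combines a level that stayed or lay lower in the bursa with a rise in tendon. For Tnc it combines a lower level in the bursa of day 14 with little change in intact tendon. The difference is built from changes after injury that were known when the genes were chosen, so its p-values are no independent support.

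Measured from each tissue's own controls, the differences of the injured tissues were set against each other as bursa minus intact tendon. They are built from the values by which the genes were chosen and are therefore described without a test. Postn lay further from control in tendon at both times, with -2.74 ± 0.42 at day 3 and -4.70 ± 0.44 at day 14, and with any 1 library left out between -3.12 and -2.58 at day 3 and between -5.08 and -4.54 at day 14. For Cthrc1 the value was 0.16 at day 3 and -2.02 ± 0.49 at day 14. The values of the other 3 genes rested on control bursa 4, the library with the high tendon marker sum. Lrrc15 was at 1.33 ± 0.81 at day 3 and -1.34 ± 0.84 at day 14, and at 3.5 and 0.84 without that library. Tnc was at 0.18 at day 3 and -2.31 at day 14, and at 1.68 and -0.82 without it. Fap was at -0.37 at day 3 and -0.64 at day 14, and at 0.42 and 0.15 without it.

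Without injury Postn differed between the 2 tissues, while the calls for Cthrc1, Lrrc15 and Tnc did not hold throughout. Muscle genes summed to 29988 to 48061 CPM in control tendons and 455 to 17286 CPM in control bursae, and their part in these differences was not tested. Postn was higher in control bursa than in control tendon by 2.07 ± 0.32 (adjusted p = 8.1e-07), while Cthrc1 (-1.20 ± 0.38, adjusted p = 0.0073), Lrrc15 (-1.98 ± 0.68, adjusted p = 0.014) and Tnc (-1.51 ± 0.58, adjusted p = 0.029) were lower in control bursa, so 4 of 5 were called, against 51.2% of features (29.3% higher and 21.9% lower in control bursa). Fap did not pass (-0.20, adjusted p = 0.68), and gave -0.99 (adjusted p = 0.0093) without control bursa 4, where it was high. The ranges of the 5 bursae and the 5 tendons overlapped for each gene. Without control bursae 1 and 2 together, Cthrc1 (-0.88, adjusted p = 0.071), Lrrc15 (-1.62, adjusted p = 0.078) and Tnc (-0.94, adjusted p = 0.18) were no longer called, and the call for Tnc was also lost without any 1 of control bursae 1, 2, 3 or 5 or control tendons 1 or 5 (-1.41 to -1.22, adjusted p 0.054 to 0.078). The call for Lrrc15 was lost without control bursa 5 (-1.63, adjusted p = 0.051). Without control bursa 4 the differences were -4.16 for Lrrc15 and -3.00 for Tnc. Scaled to total counts, which put the median of all features at 0.35, Cthrc1 gave -0.83 (adjusted p = 0.099) and Tnc -0.96 (adjusted p = 0.20), at a distance of -1.18 and -1.31 from that median. The call for Postn held in each of these.

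At day 3 each of the 5 genes had a lower estimate in tendons with the bursa removed than in tendons with the bursa intact, by differences that did not pass the edgeR test. The log2 fold change of removed over intact was -0.71 ± 0.20 for Lrrc15 (unadjusted p = 0.0017, adjusted p = 0.64), -0.45 ± 0.17 for Cthrc1 (unadjusted p = 0.015, adjusted p = 0.64), -0.41 ± 0.26 for Tnc (adjusted p = 0.66), -0.32 ± 0.21 for Fap (adjusted p = 0.67) and -0.24 ± 0.23 for Postn (adjusted p = 0.77). By edgeR 0 of 16768 features were called, 1272 had an unadjusted p under 0.05, and DESeq2 called 7. The 95% intervals ran from -1.13 to -0.29 for Lrrc15 and from -0.72 to 0.23 for Postn.

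The authors' deposited table for this comparison called 3 of the 5, each higher with the bursa intact, where 0.643% of its 7928 genes with an adjusted p were called in that direction. As log2 of intact over removed, the authors' deposited table gave Lrrc15 0.71 ± 0.17 (adjusted p = 0.0072), Cthrc1 0.45 ± 0.11 (adjusted p = 0.0065) and Tnc 0.45 ± 0.12 (adjusted p = 0.018). Fap stood in the authors' deposited table at 0.37 ± 0.12 (adjusted p = 0.11) and Postn at 0.29 ± 0.11 (adjusted p = 0.21). The sizes match those of edgeR, and the errors are smaller, the reason for which was not tested. At day 3 a DESeq2 fit that took the replicate number as a block returned the deposited log2 fold changes with a median difference of 0.0011, against 0.0066 without it. It called 82 genes as the authors' deposited table does, against 9 without the block. At day 14 the fit with the block called 6 genes and the fit without it 0, against 2 in the authors' deposited table. The labels do not say that a removed and an intact tendon of equal number came from the same rat.

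Taken by equal number, the removed tendon of day 3 had the lower level in 6 of 6 pairs for Postn, Cthrc1, Lrrc15 and Fap, and in 5 of 6 for Tnc, where 4.02% of features were lower in all 6. For Lrrc15 the pairs had 29.3 and 91.0, 52.2 and 67.9, 66.0 and 83.0, 72.1 and 102, 54.2 and 136, and 61.7 and 70.0 CPM in removed and intact tendons. The gap was wide in pairs 1 and 5 and small in the other 4. For Cthrc1 they had 103 and 203, 171 and 195, 177 and 237, 209 and 298, 191 and 265, and 155 and 179 CPM in removed and intact tendons. Here all 6 pairs leaned the same way and pair 1 most. On the log2 scale of CPM + 1 the median pair ratio was -0.44 for Cthrc1, -0.43 for Lrrc15, -0.52 for Tnc, -0.24 for Fap and -0.19 for Postn. Removed replicate 1 had the lowest level of all 12 tendons of day 3 for each of the 5 genes, and its muscle marker sum was 19566 CPM, against 2200 to 6746 CPM in the other removed and 2000 to 6206 CPM in the intact tendons. Without removed replicate 1 the edgeR differences were -0.58 for Lrrc15, -0.34 for Cthrc1, -0.28 for Tnc, -0.15 for Fap and -0.08 for Postn, so those of Fap and Postn shrank most. With the muscle level as a covariate and all libraries they were -0.68, -0.44, -0.30, -0.29 and -0.21 in the same order.

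**Figure D3:**
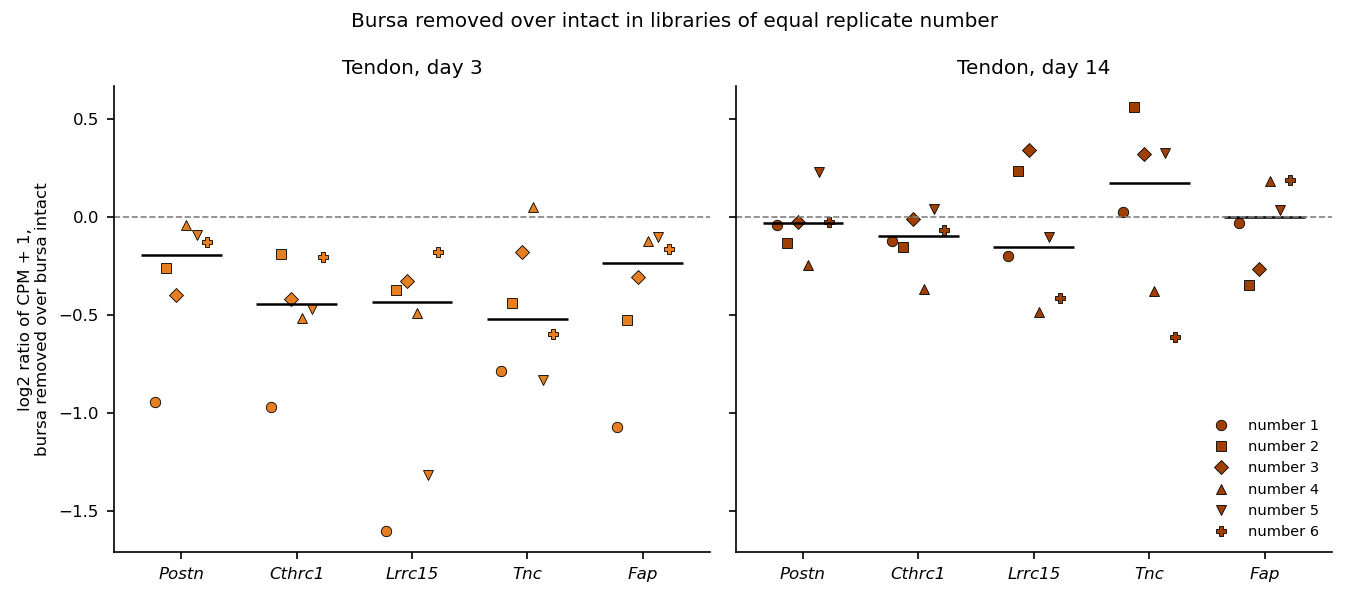
Log2 ratio of CPM + 1, bursa removed over bursa intact, in tendons of equal replicate number at day 3 and at day 14; each marker is 1 pair and each black line the median. At day 3 the ratio is below 0 in all pairs but 1 of Tnc, and at day 14 the pairs of each gene lie on both sides of 0.

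At day 14 the removed and intact tendons were close. The log2 fold change of removed over intact was -0.05 for Postn (interval -0.53 to 0.42), -0.12 for Cthrc1 (-0.48 to 0.23), -0.07 for Lrrc15 (-0.49 to 0.34), 0.03 for Tnc (-0.50 to 0.57) and -0.03 for Fap (-0.46 to 0.41), with an adjusted p of 1.0 for each. By edgeR 0 of 16768 features were called, 215 had an unadjusted p under 0.05, and DESeq2 called 1. In the authors' deposited table for day 14 all 5 were within 0.12 of 0 on the log2 scale (adjusted p = 0.99968), and 0.0108% of genes were called. The removed tendon was the lower of its pair in 5 of 6 for Postn and Cthrc1, 4 of 6 for Lrrc15, 3 of 6 for Fap and 2 of 6 for Tnc, where 1.34% of features were lower in all 6.

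Postn was counted on 2 transcripts, and their balance moved with time and tissue. The 2 matched transcripts were ENSRNOT00000017453.3, here called the first, and ENSRNOT00000084527.1; this pattern was noticed after the values were seen. The first held 19.4% ± 8.78 of the counts of both in control bursae (SD, n = 5), 10.6% ± 3.10 in bursae of day 3 and 31.3% ± 8.63 in bursae of day 14 (SD, n = 6 each). In tendons it held 62.4% ± 7.62 in controls (n = 5), 28.7% ± 6.15 at day 3 and 61.7% ± 1.99 at day 14 with the bursa removed, and 24.5% ± 4.51 at day 3 and 64.5% ± 4.73 at day 14 with the bursa intact (n = 6 each). The share at day 3 was low in every injured tendon, 17.7 to 38.4%, against 51.0 to 69.8% in control tendons. At day 14 it was 59.2 to 64.1% in removed and 57.7 to 71.2% in intact tendons, close to the control tendons, while the level of Postn at day 14 was far above control.

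Because the pattern was found in these same libraries, it is described without a test. The mean share at day 14 was above that at day 3 by 33 percentage points in removed tendons, by 40.0 in intact tendons and by 20.7 in bursae, and no library of day 14 overlapped day 3 in any of the 3. The share in control bursae minus that in control tendons was -43.0 points, also without overlap. Removed minus intact tendons gave 4.21 points at day 3 and -2.82 points at day 14, where the libraries overlapped. Kallisto divides reads that fit several transcripts between them by an estimate, and which exons separate these transcripts is not in the files used here. Fap was also counted on 2 transcripts, of which the first held 85.7 to 100% in each library. The share was taken from unweighted counts. A fitted weight on the second transcript was used only to find the pair that met the deposited values. Cthrc1, Lrrc15 and Tnc matched 1 transcript each.

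**Figure D4:**
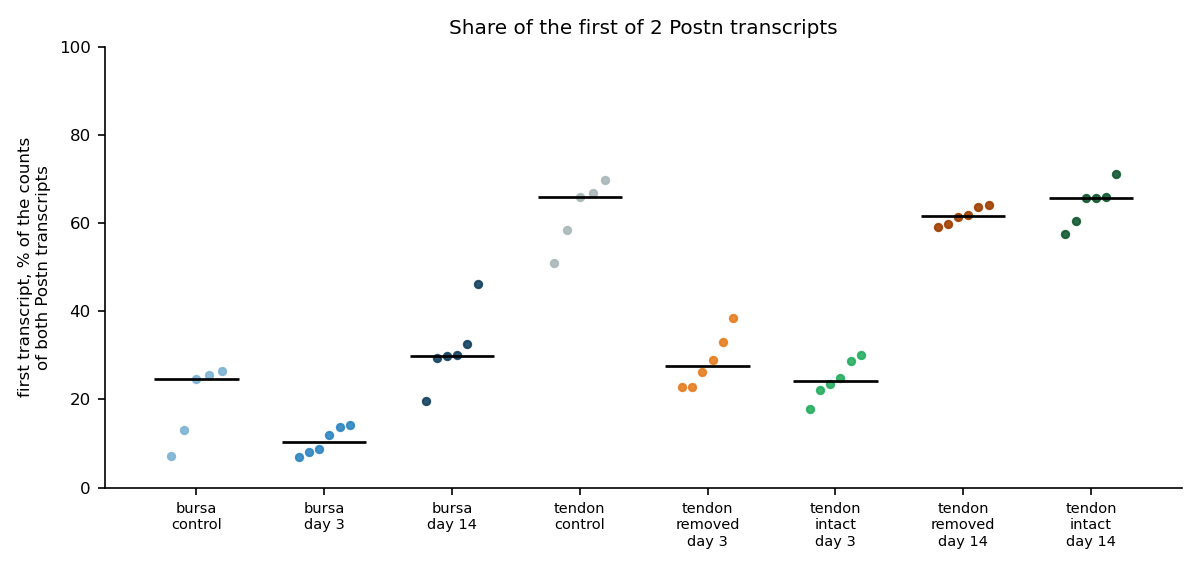
Share of the first of 2 Postn transcripts in the counts of both, in percent, for each library by group; black lines are group medians. The share is between 17.7 and 38.4% in tendons of day 3 and between 57.7 and 71.2% in tendons of day 14, and it is below 47% in every bursa.

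Genes around the members were described from fixed lists, chosen for their roles. Over all features 22.1% rose and 22.3% fell from day 3 to day 14 in removed tendons, 21.1% rose and 21.6% fell in intact tendons, and 9.34% rose and 12.1% fell in bursae. The first list held 18 receptors and partners of the members. In removed tendons 9 of 16 tested rose and 1 fell from day 3 to day 14, in intact tendons 8 rose and 2 fell, and in bursae 0 of 15 rose and 2 fell. Ror2, a Wnt receptor to which CTHRC1 binds in mice, rose by 1.12 ± 0.17 in removed (adjusted p = 5.8e-06) and 0.94 ± 0.17 in intact tendons (adjusted p = 5.6e-05), and its change differed in bursa by -1.72 ± 0.40 (adjusted p = 0.0026). Fzd6, another Wnt receptor, rose by 1.23 ± 0.12 in intact tendons (adjusted p = 8.1e-09) and differed in bursa by -1.25 ± 0.19 (adjusted p = 2.0e-05). Itga8, an integrin chain that binds tenascin-C, rose by 1.19 ± 0.20 in removed and 1.2 ± 0.20 in intact tendons (adjusted p = 1.7e-05 in both). Serpinf2, the gene of alpha-2-antiplasmin, a substrate of FAP in humans, fell by 1.2 ± 0.48 in removed and by 1.73 ± 0.50 in intact tendons (adjusted p = 0.046 and 0.0064) at a mean level of 0.399 CPM. In bursae the 2 that fell were Plaur, the urokinase receptor (-0.90 ± 0.21, adjusted p = 0.0061), and Itgb1, the common integrin beta chain (-0.31 ± 0.10, adjusted p = 0.041).

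Among 17 upstream ligands, receptors and early targets, mostly of TGF-beta, 8 of 15 tested rose and 1 fell between the days in removed tendons, 4 rose and 1 fell in intact tendons, and 4 rose and 2 fell in bursae. Tgfb3 rose by 1.51 ± 0.13 in removed and 1.09 ± 0.13 in intact tendons (adjusted p = 7.7e-10 and 1.4e-07). Tgfb2 rose by 0.96 ± 0.12 in removed tendons, 0.78 ± 0.12 in intact tendons and 1.22 ± 0.23 in bursae (adjusted p = 3.7e-07, 8.3e-06 and 0.0013).

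Transcription factors tied to fibroblast activation were split. Of 13 tested, 6 rose and 2 fell between the days in removed and also in intact tendons, and 1 rose and 3 fell in bursae. Scx, which drives tendon formation, rose by 1.57 ± 0.23 in removed and 1.46 ± 0.22 in intact tendons (adjusted p = 2.4e-06 and 7.3e-06), and its change in bursa differed from intact tendon by -2.14 ± 0.62 (adjusted p = 0.014). Snai2, a factor of mesenchymal cells, rose by 1.35 ± 0.19 in removed and 1.12 ± 0.19 in intact tendons (adjusted p = 2.5e-06 and 2.9e-05). Runx1 fell in bursae by 1.40 ± 0.27 (adjusted p = 0.0018) and differed between bursa and intact tendon by -1.43 ± 0.29 (adjusted p = 0.00059).

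Other genes of activated fibroblasts and myofibroblasts, 27 listed and 25 tested, mostly rose in tendon and mostly did not in bursa. Between the days 17 rose and 4 fell in removed tendons (median log2 fold change 1.00, against -0.02 over all features), 16 rose and 5 fell in intact tendons (0.89 against -0.01), and 1 rose and 6 fell in bursae (-0.40 against 0.02). Col11a1, a minor fibrillar collagen, rose by 3.08 ± 0.28 in removed and 3.17 ± 0.28 in intact tendons (adjusted p = 2.0e-09 and 1.4e-09), and Aspn, a proteoglycan that binds collagen and TGF-beta, by 2.11 ± 0.16 and 1.76 ± 0.16 (adjusted p = 7.1e-11 and 1.1e-09). Lox, the collagen cross-linking oxidase, did not pass in removed (-0.24 ± 0.26, adjusted p = 0.49) or intact tendons (-0.62 ± 0.26, adjusted p = 0.057), nor did Col3a1 in intact tendons (0.37 ± 0.16, adjusted p = 0.070). In bursae Timp1, an inhibitor of matrix proteases, fell by 2.02 ± 0.32 (adjusted p = 0.00036), and Lox, Ltbp2 and Adam12 fell by 1.46 ± 0.34, 1.41 ± 0.24 and 1.34 ± 0.35 (adjusted p = 0.0060, 0.00075 and 0.013). The change differed between bursa and intact tendon for 11 of the 25, where 16.6% of all features differed, all 11 with the lower value in bursa, where 8.72% of features had it, among them Col12a1 (-2.77 ± 0.54, adjusted p = 0.00043) and Thbs2 (-2.17 ± 0.45, adjusted p = 0.00082). Of 15 tested fibroblast genes of uninjured tissue 5 rose and 0 fell in bursae between the days.

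Relative to control, most of these other activated fibroblast genes were also higher after injury. In removed tendons 18 of the 25 rose and 3 fell at day 3, where 30.6% of all features rose and 31.8% fell, and 21 rose and 1 fell at day 14, where 33.1% rose and 31.8% fell. In intact tendons 18 rose and 4 fell at day 3, where 32.4% of all features rose and 32.7% fell, and 21 rose and 1 fell at day 14, where 33.8% rose and 32.2% fell. In bursae 17 rose and 4 fell at day 3, where 21.9% of all features rose and 23.9% fell, and 15 rose and 0 fell at day 14, where 9.16% rose and 7.01% fell. The control libraries are shared between the comparisons of a tissue.

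For bursa removal at day 3, edgeR called none of the genes on these lists, in either direction. The authors' deposited table, which called 0.643% of its genes as higher with the bursa intact, called 5 of the 24 other activated fibroblast genes with an adjusted p, all in that direction: Loxl2 (log2 of intact over removed 0.57), Aspn (0.46), Lox (0.46), Adam12 (0.42) and Col5a2 (0.40), with adjusted p between 0.0012 and 0.037. Among the upstream genes, the authors' deposited table called Pdgfc (0.52), Inhba (0.49) and Tgfb3 (0.40), again each higher with the bursa intact. Tgfbi, the gene of the paralogue of periostin, was called there as well (0.46 ± 0.11, adjusted p = 0.010). So was Dpt, the gene of dermatopontin from the list of uninjured tissue, with a larger difference (0.71 ± 0.13, adjusted p = 9.9e-05). Of the lists for other cell types, 1 gene was called, Cdh5, an adhesion gene of endothelium, which was lower with the bursa intact (-0.45 ± 0.11, adjusted p = 0.0065). The authors' deposited table called 0 of 12 receptors and partners and 0 of 14 transcription factors.

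Between the days Tgfbi fell by 1.14 in bursae (adjusted p = 0.041), rose by 0.53 in removed tendons (adjusted p = 0.029) and was at 0.13 in intact tendons. Tnn, which codes for another tenascin, is given only in the authors' deposited tables because its symbol matched no transcript. The authors' deposited tables gave Tnn as 0.92 ± 0.25 for day 14 over day 3 in removed tendons (adjusted p = 0.00088), 0.62 ± 0.17 in intact tendons (adjusted p = 0.0013) and -1.91 ± 0.68 in bursae (adjusted p = 0.018). Dpp4, the closest relative of Fap and a gene of some resting fibroblasts, rose between the days in bursae by 1.28 ± 0.27 (adjusted p = 2.7e-05) in the authors' deposited table and stood at 0.42 ± 0.19 in removed tendons (adjusted p = 0.054).

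Across the 46 libraries the genes whose level followed each member most closely were named by a fixed rule. The 5 genes with the highest Pearson correlation of log2 CPM, among those with a mean of at least 10 CPM, are given for each. The points share tissue, time and depth, so the values describe the pattern over the 8 groups. For Postn they were Mmp14 (r = 0.985), Evl, Slc38a10, C1qtnf6 and Rcn1 (0.949). For Cthrc1 they were Sorcs2 (0.979), Galnt10, Lrrc15 (0.973), Cd276 and Col5a1 (0.971). For Lrrc15 they were Sorcs2 (0.975), Cacnb3, Cthrc1, Hhipl1 and Ptprv (0.961). For Tnc they were P3h4 (0.976), Itga5, Runx1, Tgfbi and Slc41a2 (0.971). For Fap they were Mrc2 (0.942), Col5a2, Wipf1, Gli3 and Dse (0.925). Cthrc1 and Lrrc15 were thus among each other's closest, and no other pair of members was. Ranked by Spearman's rho instead, 0 to 3 of the 5 genes named for a member were again among its 5 closest, with 0 for Fap.

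After the mean of each group was subtracted, what remained described libraries of the same group. The 10 pairs of members had Pearson's r between 0.48 and 0.81 over the 46 libraries, the highest being Lrrc15 with Tnc (0.81) and Cthrc1 with Lrrc15 (0.80). Spearman's rho ran lower, from 0.19 for Lrrc15 with Fap to 0.71 for Cthrc1 with Lrrc15. The gene most like each member within groups was Ror1 for Postn (0.879), P4ha3 for Cthrc1 (0.828), C1qtnf3 for Lrrc15 (0.847), Ckap4 for Tnc (0.906) and Gpsm2 for Fap (0.930). Plod2 was among the 5 closest of both Lrrc15 and Tnc, and P4ha3 and C1qtnf3 of both Cthrc1 and Lrrc15. Mmp14, the membrane-bound collagenase, was among the 5 closest to Postn in both settings. By Spearman's rho 0 to 2 of the 5 were again among the closest within groups, and P4ha3 ranked 124th for Cthrc1.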

How the data were processed

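The authors deposited estimated counts per transcript, with no gene names, for 46 libraries; the submitters' processing notes name bcl2fastq 2.19 and kallisto 0.44.0. Per the file headers, the authors' 11 deposited gene tables hold, from DESeq2, mean normalized counts (a signal), log2 fold changes with SE, a test score (stat), p-values and adjusted p-values. For DESeq2's version, the genome build and the annotation the sources used here give nothing. Symbols were given to transcripts by value: the 1 or 2 transcripts whose scaled counts returned the deposited means in all tables. This named 13325 of 23747 symbols and 15194 of 31715 transcripts (88.1% of counts). A search with means multiplied by 1.3 named 107 of 5937 symbols (1.80%), a measure of chance matches. That search left out the fitted weight by which Fap was matched, so it gives no such measure for Fap. The deposited log2 fold changes were met with a median difference of 0.0039, which is no separate test, since the means fix them. For Fap a weight on the second transcript was fitted to find its pair of transcripts, and the counts of both were then summed without that weight.

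Counts were summed per symbol and rounded to whole numbers. After filterByExpr and TMM scaling, edgeR 4.0.16 (robust quasi-likelihood test, R 4.3.3) was run on 17 bursa libraries (16700 features), 29 tendon libraries (16768) or all 46 (17627). Features are genes, and transcripts without a symbol. P-values were adjusted by Benjamini-Hochberg across all features (threshold 0.05). DESeq2 1.42.0 was the alternative tool. Pair ratios use CPM + 1. The planned tests of the injury response between tissues are not used for the members, which were chosen by that response. Depth was 12.4 to 69.9 M counts, which limits genes of few counts, such as Lrrc15 in control bursae. The members and lists were chosen with earlier results of these data known, the lists by textbook roles. Genes named are the members, genes of those lists (per comparison at most the 4 with the largest change past the threshold and the 2 of highest CPM not past it) and the 5 genes most like each member. Simulated counts held 100 features changed 2-fold and 100 changed 4-fold. For day 14 against day 3 in bursa (16324 features) edgeR called 58 and 92 of them. For removed against intact tendon at day 3 (16477 features) it called 87 and 93. Unchanged features made up 6.83% and 7.69% of the calls in these 2 comparisons. No change under 2-fold was simulated, so these counts do not cover the smaller differences of the members in removed against intact tendon. Alternatives were other scalings, no filter, DESeq2, the replicate number as a block, the muscle marker level as a covariate (tendon fits only) and each library left out.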

Additional observations from a re-analysis of the deposited data

Results flagged for a closer look

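In 6 of the 48 groups of 5 or 6 libraries (5 genes and the Postn transcript share), 1 library stood far from the others by Dixon's criterion, which chance alone meets in about 1 group in 20. Control bursa 4 had 2.48 CPM of Lrrc15 (next 0.20 CPM) and 295 CPM of Tnc (next 45.1 CPM), and its tendon marker sum was 2557 CPM against 61.8 to 298 CPM in the other control bursae. Bursa replicate 2 of day 14 had 77.0 CPM of Lrrc15 (next 28.4 CPM) and 730 CPM of Tnc (next 187 CPM), with the highest tendon marker sum of its group, 1385 CPM. The part of tendon tissue in these 2 bursa libraries was not tested. Removed tendon replicate 1 of day 3 had 40.5 CPM of Fap, the next library 97.9 CPM, and its muscle marker sum was the highest of its group at 19566 CPM. Removed tendon replicate 2 of day 14 had 27586 CPM of Postn, with the next at 24969 CPM.

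The change from day 3 to day 14 differed between bursa and intact tendon for Postn (-1.96), Cthrc1 (-2.18), Lrrc15 (-2.67) and Tnc (-2.50). These are log2 differences, bursa minus intact tendon, by an edgeR test of the difference itself. They are built from changes after injury that were known when the genes were chosen, so the test is no independent support.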

How the results depend on the processing

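For the 5 genes, 40 results with a test were recomputed under 255 alternatives other than leaving out a single library. Of these 232 kept direction and side of the threshold, 8 lost a call, 6 gained one and 9 changed sign. The changes of sign were in values that were not called with all libraries and TMM, and the cause was not tested. In removed against intact tendons of day 14 the muscle covariate gave 0.063 for Postn, 0.077 for Lrrc15 and 0.086 for Fap, and total counts gave -0.00061 for Tnc. In control bursa against control tendon Fap was 0.27 by total counts and 0.32 without control bursae 1 and 2. In the day 3 response of bursa minus tendon, described without a test, Cthrc1 was -0.24 and -0.14 and Tnc -0.38 and -0.36 under the same 2 settings. As single libraries were left out, values ranged as follows. For day 14 against day 3 in bursa, Postn ran from -0.17 to 0.18, Cthrc1 from -0.40 to 0.19 and Fap from -0.16 to 0.094. For removed against intact tendon at day 14, Lrrc15 ran from -0.19 to 0.017, Tnc from -0.082 to 0.19 and Fap from -0.069 to 0.042. For control bursa against control tendon Fap ran from -0.99 to 0.060. For bursa minus tendon at day 3, Cthrc1 ran from -0.025 to 0.46, Tnc from -0.11 to 1.68 and Fap from -0.63 to 0.42, and at day 14 Lrrc15 ran from -1.95 to 0.84 and Fap from -0.91 to 0.15.

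Counts of called features moved by over 1.5 times under 4 settings, 1 of them the DESeq2 fit with the replicate block. Total counts in place of TMM gave 4028 in place of 7640 for bursa day 3 against control, 519 in place of 2701 for bursa day 14 against control, and 1186 in place of 3579 for day 14 against day 3 in bursa. The muscle covariate gave 4901 in place of 10467 for removed tendons of day 3 against control, 6555 in place of 10873 at day 14, 4457 in place of 10917 for intact tendons of day 3 and 5239 in place of 11054 at day 14. DESeq2 called 7 features in removed against intact tendons at day 3 and 1 at day 14, against 0 in both by edgeR. With total counts 27.9% of the calls of day 14 against day 3 were higher in removed tendons and 28.0% in intact tendons, against 49.7% and 49.5% with TMM.

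Equal replicate numbers were not taken as pairs in the fits. Deviations of removed and intact tendons of equal number correlated above 0.1 in 3 of 6 pairs at day 3 (median r 0.10) and in 5 of 6 at day 14 (0.17). For unequal numbers the median r was -0.018 at day 3 and -0.019 at day 14. The equal number gave the highest correlation in 4 of 6 at day 3 and 6 of 6 at day 14. Between bursa and intact tendon it did so in 5 of 6 on each day. If equal numbers are the same rat, which the labels do not say, the fits without a block ignore that pairing. With the number as a block, edgeR called 0 features at day 3, with Cthrc1 at -0.46 (adjusted p = 0.13), and DESeq2 on the 2 groups called 81 at day 3 and 6 at day 14. With the block Tnc in removed tendons, day 14 against day 3, was 0.69 (adjusted p = 0.052), Tnc in bursa was -2.38 (adjusted p = 0.049), Postn in bursa 0.0075, the day 14 response of Tnc in bursa minus tendon -1.55 and the day 3 response of Fap 0.13. With the block and the muscle covariate, Postn was 0.048 and Lrrc15 0.12 in removed against intact tendons of day 14.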

Other observations

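Genes listed by textbook roles as fibroblast genes of uninjured tissue, 16 listed and 15 tested, were described in the same way. Between day 3 and day 14, 6 rose and 4 fell in removed tendons (22.1% and 22.3% of all features), 5 rose and 3 fell in intact tendons (21.1% and 21.6%), and 5 rose and 0 fell in bursae (9.34% and 12.1%). The median log2 fold change in bursae was 0.57, against 0.02 over all features. In bursae Gsn, the actin-severing protein gelsolin, rose by 2.15 ± 0.34 (adjusted p = 0.00041), Scara5, a ferritin receptor, by 1.85 ± 0.38 (adjusted p = 0.0025), Abca8a by 1.24 ± 0.23 (adjusted p = 0.0014) and Clec3b, the gene of tetranectin, by 1.19 ± 0.24 (adjusted p = 0.0024), by edgeR. Gsn did not pass in removed (0.22 ± 0.17, adjusted p = 0.30) or intact tendons (0.05 ± 0.17, adjusted p = 0.83), and its change differed between bursa and intact tendon by 2.15 ± 0.35 (adjusted p = 3.7e-05). Smoc2, a matricellular calcium-binding protein, rose by 2.48 ± 0.21 in removed and 2.60 ± 0.21 in intact tendons (adjusted p = 7.0e-10 and 3.3e-10). At day 14 Smoc2 lay above control by 2.91 ± 0.23 in removed and 2.88 ± 0.23 in intact tendons. Lum of this list also lay above control there, by 3.96 ± 0.24 and 4.00 ± 0.24, while Gsn lay at -4.00 ± 0.19 and -3.93 ± 0.19. A rise between the days is thus not the same as a return to the uninjured level.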
